A study of Homo sapiens with 44 samples.

Results

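The core genes of the circadian clock were followed through RNA of HEK293-GR and A549 cells after knockdown of IRF2BP2. The genes were PER1, PER2, PER3, CRY1, CRY2, NR1D1, NR1D2, ARNTL, CLOCK and DBP, taken by symbol from the expression tables, and 10 of 10 were found among the 25690 symbols of each table. In A549, where they have 23 transcripts, the transcript with the most reads stood for the gene. The rule that chose them names genes of the known clock, as a known direct target circuit of glucocorticoids, and uses no measured value. They were chosen with earlier results of these data known. The share of members called for a glucocorticoid is therefore no test of that link.

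In the mammalian clock, ARNTL (also called BMAL1) and CLOCK form a dimer that binds E-box sequences and switches on the PER, CRY and NR1D genes. PER and CRY proteins then enter the nucleus and inhibit that dimer, while the nuclear receptors NR1D1 and NR1D2 (REV-ERB alpha and beta) repress ARNTL, which closes a second loop, and DBP drives output genes through D-box sequences. Glucocorticoids reset the clocks of peripheral cells, and PER1 is a textbook direct target of the glucocorticoid receptor.

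The study asked how IRF2BP2, a transcriptional coregulator, acts on the response to dexamethasone (dex), which activates the glucocorticoid receptor, and to the inflammatory cytokine TNF (tumor necrosis factor). HEK293-GR is a single isogenic Flp-In derivative of the embryonic kidney line HEK293 that expresses the glucocorticoid receptor constitutively, and A549 is a lung adenocarcinoma line. All RNA groups were kept in steroid-depleted medium with charcoal-stripped serum and received for 72 h either 20 nM of a non-targeting siRNA pool (siNON) or 20 nM of a siRNA pool against IRF2BP2 (siIRF2BP2). The last 6 h were with ethanol vehicle or 100 nM dex and, in A549, also with 10 ng/ml TNF or with dex plus TNF. For IRF2BP2 chromatin immunoprecipitation (ChIP), HEK293-GR cells had 1 h of vehicle or of 100 nM dex. The labels name 4 replicates per HEK293-GR group, of which columns for 3 were used (12 libraries), and 4 samples were not analysed here. The 24 A549 samples, 3 per group, are deposited as 8 pooled columns with no spread between replicates. The design text calls the replicates biological but does not say how they were separated, so a p-value measures the spread between these libraries.

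The HEK293-GR libraries held 18.2 to 28.5 M tags and the pooled A549 columns 35.8 to 56.9 M tags. The HEK293-GR table gives FPKM (fragments per kilobase of exon and per M tags), so levels can be compared between its genes. The A549 FPKM are per kilobase of genomic span, and A549 levels are therefore compared only within a gene. In HEK293-GR, 15594 genes were tested with limma on log2(FPKM + 0.1), which understates the change of low genes, and a gene was called at a Benjamini-Hochberg adjusted p under 0.05. In A549 the calls are those of the authors' deposited table, at an FDR under 0.05. The siNON vehicle replicate 3 stood apart: its median absolute log2 distance from the other libraries of its group was 0.19, the highest of the 12, and the lowest was 0.07. Its chi-square per degree of freedom was 7.89, 8.87 and 11.0 against the 3 siIRF2BP2 vehicle libraries and 14.5 and 11.6 against the other siNON vehicle libraries, so it lay nearer to the knockdown group than to its own. The siIRF2BP2 vehicle replicate 2 deviated in a similar way. The deviations of both libraries from their group means correlated at 0.57, the highest of any pair. The chi-square per degree of freedom of that replicate was 8.14 and 10.3 within its own group. Log2 values of IRF2BP2 and of called members without the siNON vehicle replicate 3 stand beside the comparisons that use it. They are not given for other genes, medians, overlap counts or correlations. The 7 HEK293 markers summed to between 42.5 and 64.7 FPKM in HEK293-GR and between 2.24 and 5.38 FPKM in A549, and A549 markers to between 553 and 807 FPKM in A549. Since A549 FPKM are per genomic span, these sums cannot be compared between the lines or between the lists in A549. A cut of 1 FPKM, used below, also does not mean the same level in each line. In HEK293-GR, 5 of the 7 HEK293 markers passed it in all libraries of each siNON group, and 4 of 7 in those of each siIRF2BP2 group. Of the 7 A549 markers at most 2 passed 1 FPKM in HEK293-GR, where their sum was 3.97 to 7.26 FPKM under vehicle and 55.1 to 77.6 FPKM under dex. Of the 7 markers of blood, endothelial and fibroblast cells at most 2 passed 1 FPKM in a group, and the part of any marker in the results was not tested.

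On hg19, as the HEK293-GR table gives them, the other members lie on chr2:239152679-239197207 (PER2, minus strand), chr1:7844489-7905240 (PER3, plus), chr12:107385143-107487635 (CRY1, minus), chr11:45868957-45904799 (CRY2, plus), chr11:13299274-13408812 (ARNTL, plus), chr4:56294068-56412099 (CLOCK, minus) and chr19:49133817-49140807 (DBP, minus), and PER1, NR1D1 and NR1D2 are placed with their results. PER1 holds the microRNA gene MIR6883 over 77 bases, whose reads cannot be told apart from its own. Promoter letters of 4 members are shown because these hold the elements that the clock proteins are known to bind. All 10 members matched the RefSeq promoter table (GRCh38.p14, ARNTL under BMAL1), with 15 windows of 300 bases from 250 before to 50 after a transcript start. Each line gives the 250 bases before the start on the gene's own strand, with elements in capitals: CACGTG is the E-box, TTATGNAA and its reverse complement the D-box, and TAGGTCA the element of ROR and REV-ERB receptors. PER1 is from chr17:8152405-8152654 (minus strand), NR1D2 from chr3:23945871-23946120, PER3 from chr1:7784041-7784290 and CRY2 from chr11:45847225-45847474 (plus strand).
PER1: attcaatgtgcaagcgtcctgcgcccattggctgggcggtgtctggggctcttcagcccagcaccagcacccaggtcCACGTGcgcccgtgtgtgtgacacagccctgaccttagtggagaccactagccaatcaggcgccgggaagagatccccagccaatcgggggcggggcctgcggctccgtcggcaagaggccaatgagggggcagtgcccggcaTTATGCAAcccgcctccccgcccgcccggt
NR1D2: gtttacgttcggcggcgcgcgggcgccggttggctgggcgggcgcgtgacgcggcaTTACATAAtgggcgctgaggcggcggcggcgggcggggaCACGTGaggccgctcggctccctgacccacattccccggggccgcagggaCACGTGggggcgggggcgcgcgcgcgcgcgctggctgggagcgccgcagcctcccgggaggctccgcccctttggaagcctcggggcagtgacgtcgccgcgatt
PER3: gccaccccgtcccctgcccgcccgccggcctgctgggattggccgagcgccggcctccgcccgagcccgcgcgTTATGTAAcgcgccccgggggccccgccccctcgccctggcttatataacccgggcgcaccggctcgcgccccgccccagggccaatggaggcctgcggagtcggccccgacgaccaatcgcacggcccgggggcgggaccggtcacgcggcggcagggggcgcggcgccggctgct
CRY2: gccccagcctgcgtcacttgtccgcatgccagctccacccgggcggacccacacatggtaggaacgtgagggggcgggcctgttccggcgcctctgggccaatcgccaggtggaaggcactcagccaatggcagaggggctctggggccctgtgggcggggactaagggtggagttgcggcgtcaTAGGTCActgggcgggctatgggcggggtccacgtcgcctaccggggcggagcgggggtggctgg

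The PER1 window had an E-box 173 bases and a D-box 30 bases before the start. The NR1D2 window had E-boxes 155 and 105 bases and a D-box 194 bases before the start. PER3 had a D-box 177 bases and CRY2 a receptor element 65 bases before the start, and ARNTL had a receptor element 31 bases after it. Among 35116 promoter windows of this length, both strands read, 7.26% held an E-box, 3.3% a D-box and 1.85% the receptor element. The palindromic glucocorticoid element was in 0.39% of windows and in none of the 15 windows of the members. A match is a description of the letters and not a measured site.

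IRF2BP2 itself was 23.4, 25.0 and 20.3 FPKM in the siNON vehicle replicates 1 to 3 and 12.6, 11.8 and 13.7 FPKM with siIRF2BP2. Under dex it was 20.6, 20.0 and 19.3 FPKM with siNON and 9.64, 11.1 and 10.4 FPKM with siIRF2BP2. The groups did not overlap, and IRF2BP2 fell by 0.84 ± 0.08 (log2 ± SE, n = 3 per group, limma adjusted p 1.87e-05) under vehicle and by 0.94 ± 0.08 under dex. Without the siNON vehicle replicate 3 the fall under vehicle was 0.93 ± 0.08. In A549 the authors' deposited table gives smaller falls, of -0.31 with vehicle, -0.66 with dex, -0.40 with TNF and -0.62 with both ligands, each with an FDR under 0.05.

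**Figure D1:**
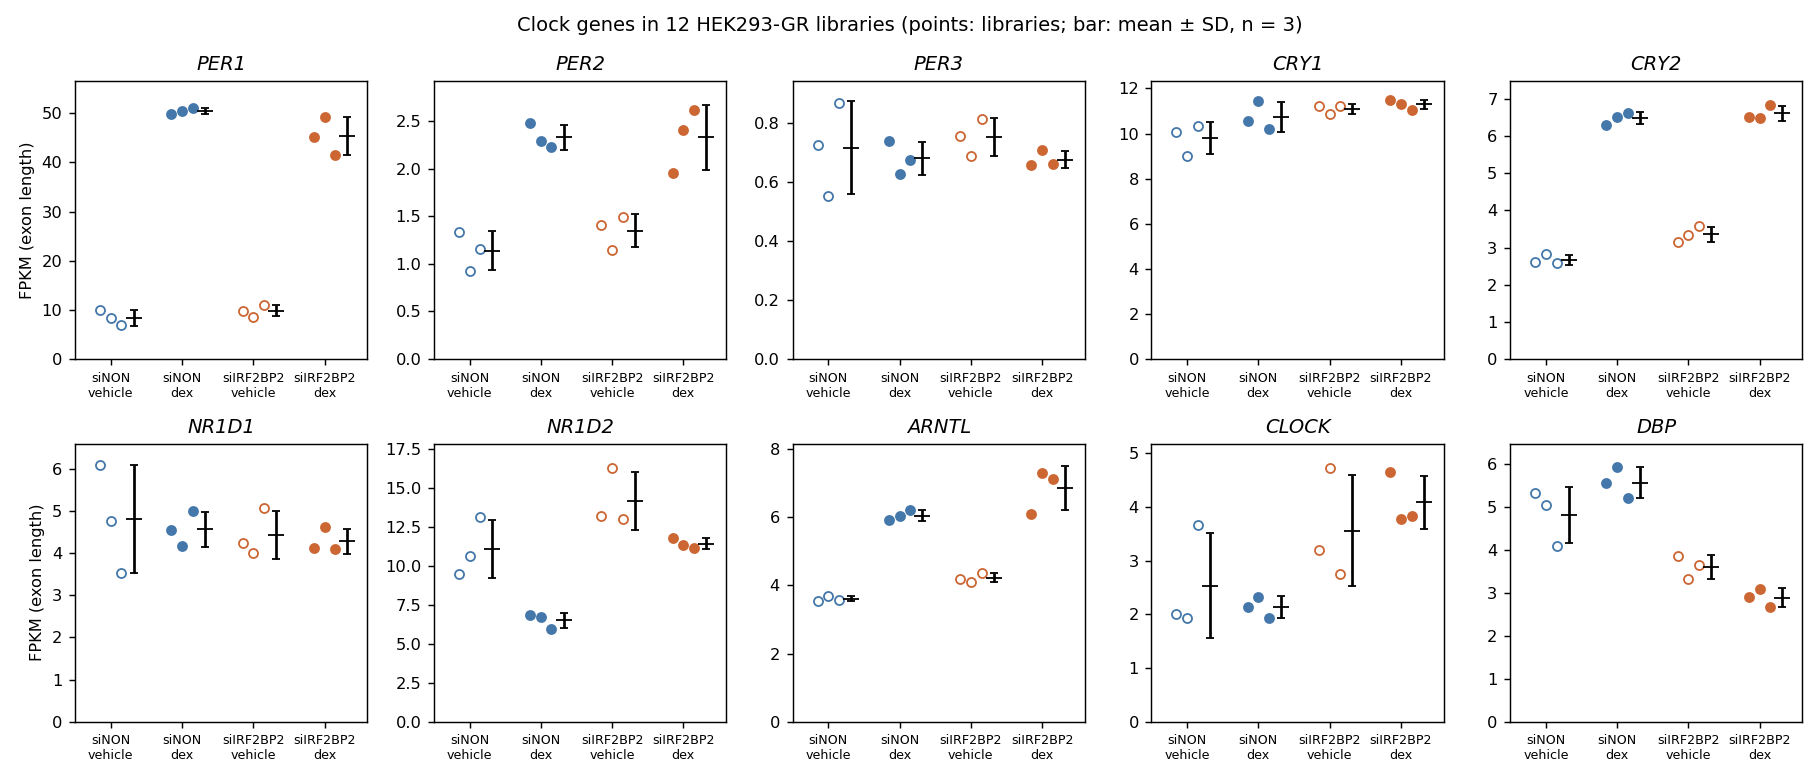
FPKM (y axis, exon length, from 0) of the 10 clock genes in the 4 HEK293-GR groups (x axis). Points are libraries, open for vehicle and filled for dex, and black bars are the mean ± SD (n = 3). PER1, PER2, CRY2 and ARNTL lie higher under dex with either siRNA, and the groups of PER3 and NR1D1 overlap in every comparison.

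With siNON, dex raised PER1, PER2, CRY2 and ARNTL and lowered NR1D2 in HEK293-GR cells. PER1, a repressor of the clock and the most abundant member under dex, was 9.97, 8.30 and 6.86 FPKM in siNON vehicle libraries and 49.9, 50.5 and 51.2 FPKM in siNON dex libraries. The groups lay far apart, at 6.03 times the mean, and PER1 rose by 2.59 ± 0.11 (log2 ± SE, n = 3 per group, limma adjusted p 6.56e-11). Without the siNON vehicle replicate 3 it rose by 2.46. PER1 had 0.90 to 1.18 reads per base in the dex libraries, while the densest gene of each library had 2.83 to 2.99. That maximum varied little over libraries of 18.2 to 28.5 M tags. Whether reads per base were limited, and the size of the PER1 changes under dex with them, was not tested. Its close relative PER2 was 1.33, 0.93 and 1.15 FPKM under vehicle and 2.48, 2.29 and 2.23 FPKM under dex. These groups also did not overlap, and PER2 rose by 0.99 ± 0.15 (adjusted p 0.000215, limma). PER3, the least abundant member, was 0.72, 0.55 and 0.87 FPKM under vehicle and 0.74, 0.63 and 0.68 FPKM under dex. Its groups overlapped, and its change of -0.05 ± 0.16 did not pass the test. In bulk RNA such as this, a change in the number of expressing cells and a change in RNA per cell cannot be told apart.

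CRY2, a cryptochrome that represses the dimer of CLOCK and ARNTL, was 2.60, 2.82 and 2.58 FPKM under vehicle and 6.31, 6.50 and 6.62 FPKM under dex. It rose by 1.25 ± 0.09 (adjusted p 2.68e-08, limma), with no overlap. CRY1, the other cryptochrome, was 10.1, 9.01 and 10.3 FPKM under vehicle and 10.6, 11.5 and 10.2 FPKM under dex. Those groups overlapped, and the CRY1 difference of 0.13 ± 0.07 did not pass the test, so the paralogs had different values under the same treatment, a difference between genes that was not tested. The activator ARNTL was 3.55, 3.70 and 3.58 FPKM under vehicle and 5.90, 6.04 and 6.201 FPKM under dex. ARNTL rose by 0.73 ± 0.09 (adjusted p 1.61e-05, limma), with all dex libraries above all vehicle libraries.

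NR1D2, a repressor of ARNTL, fell. It was 9.48, 10.6 and 13.1 FPKM under vehicle and 6.82, 6.74 and 5.98 FPKM under dex, a fall of the mean to 0.59 of its vehicle level. NR1D2 fell by 0.75 ± 0.11 on the log2 scale (adjusted p 0.000118, limma) and by 0.62 without the siNON vehicle replicate 3. NR1D1, the paralog with the same role, was 6.10, 4.78 and 3.54 FPKM under vehicle and 4.55, 4.17 and 5.00 FPKM under dex. The dex values of NR1D1 fell inside the vehicle range, with a difference of -0.04 ± 0.15. NR1D1, of 2765 exon bases, overlaps THRA on the opposite strand by 1083 bases. Reads of the overlap cannot be told apart in HEK293-GR, and their part in the NR1D1 values was not tested. CLOCK, the partner of ARNTL, was 2.00, 1.93 and 3.66 FPKM under vehicle and 2.14, 2.33 and 1.93 FPKM under dex, and did not pass the test (-0.18 ± 0.22). Its 3.66 FPKM was in the library that stands apart, without which the difference was 0.11. DBP, an output activator, was 5.31, 5.04 and 4.09 FPKM under vehicle and 5.55, 5.94 and 5.20 FPKM under dex, overlapping groups with a difference of 0.21 ± 0.11 that did not pass the test.

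With siNON, then, 5 of 10 members were called for dex, where 20.7% of all genes tested were called, 4 higher (10.9% of all genes) and 1 lower (9.82%). Without the siNON vehicle replicate 3 the same 5 were called, among 2456 calls over all 15594 genes: PER2 at 1.00, CRY2 at 1.23 and ARNTL at 0.72 beside the PER1 and NR1D2 values above. The other members were then at 0.17 (CRY1), 0.09 (PER3), -0.24 (NR1D1), 0.11 (CLOCK) and 0.10 (DBP), none called. The median difference of the members was 0.17 on the log2 scale against 0.02 over all genes. In 5 of 10 members the dex and vehicle libraries did not overlap, as in 39.1% of all genes. By mean FPKM the order under siNON vehicle was NR1D2 (11.1), CRY1 (9.81), PER1 (8.38), DBP (4.81), NR1D1 (4.80), ARNTL (3.61), CRY2 (2.66), CLOCK (2.53), PER2 (1.14) and PER3 (0.71). In it, NR1D2 and CRY1, CRY1 and PER1, DBP and NR1D1, NR1D1 and ARNTL, and CRY2 and CLOCK overlapped between libraries. Under siNON dex PER1 stood first at 50.5 FPKM and CRY1 second at 10.7 FPKM.

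With siIRF2BP2 the same treatment called 4 of 10 members, where 10.5% of all genes were called. The 4 were higher, as 5.86% of all genes were, and 0 members were lower (4.59%). PER1 was 9.84, 8.64 and 10.9 FPKM under vehicle and 45.2, 49.3 and 41.5 FPKM under dex, a rise of 2.20 ± 0.11 (log2 ± SE, adjusted p 7.15e-10, limma). PER2 was 1.41, 1.15 and 1.49 FPKM under vehicle and 1.96, 2.41 and 2.62 FPKM under dex, and rose by 0.74 ± 0.15 (adjusted p 0.00358, limma). CRY2 went from 3.16, 3.33 and 3.57 FPKM to 6.52, 6.48 and 6.84 FPKM, a rise of 0.96 ± 0.09 (adjusted p 8.49e-07, limma). None of these groups overlapped. ARNTL was 4.20, 4.102 and 4.36 FPKM under vehicle and 6.10, 7.31 and 7.13 FPKM under dex, and rose by 0.68 ± 0.09 (adjusted p 4.31e-05, limma). NR1D2 was 13.2, 16.3 and 12.99 FPKM under vehicle and 11.8, 11.4 and 11.1 FPKM under dex. Its groups did not overlap, and its difference of -0.30 ± 0.11 did not pass the limma test (adjusted p 0.108), while the authors' deposited table calls it at -0.34. DBP was likewise without overlap and not called (-0.31 ± 0.11). PER3, CRY1, NR1D1 and CLOCK overlapped between vehicle and dex and were not called. The libraries did not overlap in 6 of 10 members, as in 25.3% of all genes, and the median difference of the members was 0.12 against 0.02 over all genes.

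The difference of the dex responses between siIRF2BP2 and siNON was tested as an interaction. None of the 10 members passed (0 of 10, limma, where 0.0128% of all genes passed), and 0 of 10 passed with voom on recovered reads. At an unadjusted p under 0.05 there were 4 of 10 members, where 5.16% of all genes were past it: PER1 (-0.39 ± 0.16), CRY2 (-0.29 ± 0.13), NR1D2 (0.45 ± 0.16) and DBP (-0.52 ± 0.16), each as log2 ± SE. The adjusted p of DBP was 0.673 and that of PER1 0.794. Without the siNON vehicle replicate 3 the difference was -0.26 for PER1, -0.27 for CRY2, 0.32 for NR1D2 and -0.41 for DBP, and 0 of 10 passed.

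**Figure D2:**
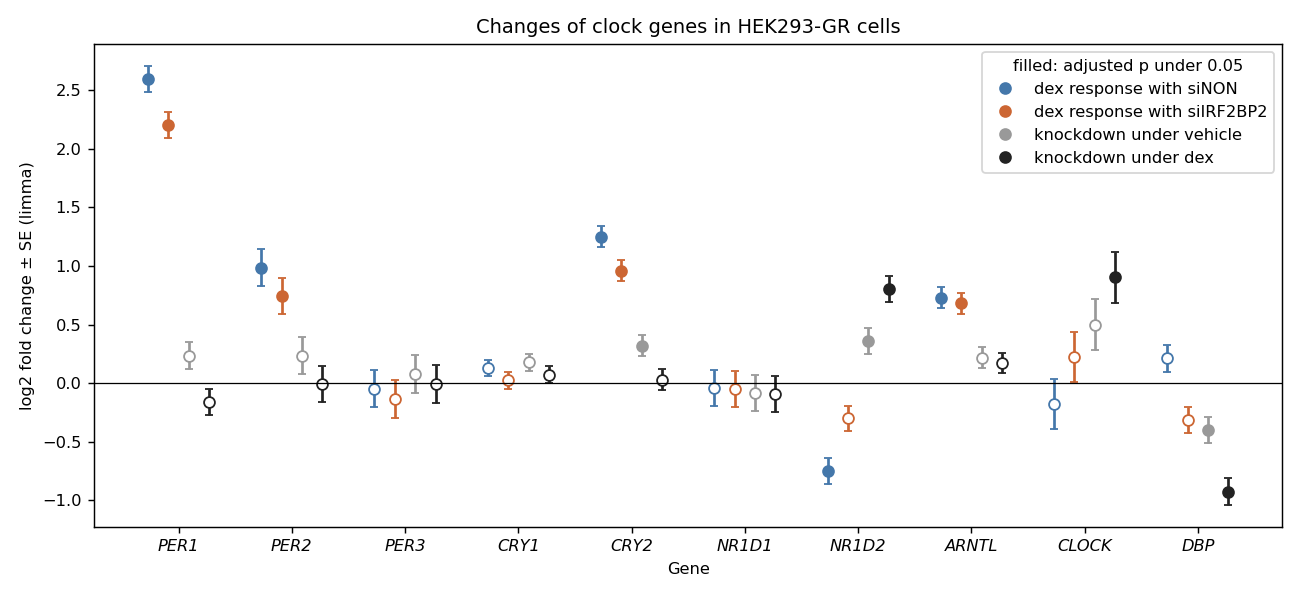
Log2 fold change ± SE (y axis, limma, n = 3 per group) of each clock gene (x axis) in the dex response with each siRNA and in the knockdown under vehicle and under dex. Filled points have an adjusted p under 0.05: PER1 stands highest at 2.59 and 2.20, and DBP lowest at -0.92 for the knockdown under dex.

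Under dex, the knockdown called NR1D2 and CLOCK higher and DBP lower, no larger a share of the members than of all genes. NR1D2 was 6.82, 6.74 and 5.98 FPKM with siNON and 11.8, 11.4 and 11.1 FPKM with siIRF2BP2. It rose by 0.80 ± 0.11 (log2 ± SE, n = 3 per group, adjusted p 0.000143, limma), or 1.76 times the mean. CLOCK was 2.14, 2.33 and 1.93 FPKM with siNON and 4.64, 3.77 and 3.83 FPKM with siIRF2BP2, a rise of 0.90 ± 0.22 (adjusted p 0.00468, limma). DBP fell, from 5.55, 5.94 and 5.20 FPKM to 2.90, 3.10 and 2.66 FPKM, by 0.92 ± 0.11 on the log2 scale (adjusted p 6e-05, limma). The libraries of these 3 genes did not overlap. PER1, at 49.9 to 51.2 FPKM with siNON and 41.5 to 49.3 FPKM with siIRF2BP2, did not overlap either. Its difference of -0.16 ± 0.11 did not pass limma (adjusted p 0.274), whereas the authors' deposited table calls it at -0.18 with an FDR of 0.00374. PER2, CRY2 and NR1D1 differed by -0.01 ± 0.15, 0.03 ± 0.09 and -0.09 ± 0.15, with overlapping libraries, and ARNTL by 0.17 ± 0.09. Thus 3 of 10 members were called, where 39.7% of all genes were called, 2 higher (22.4% of all genes) and 1 lower (17.3%). The libraries of 4 of 10 members did not overlap, as for 58.0% of all genes, and the median difference was 0.01 for the members and -0.00 for all genes.

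Under vehicle, the knockdown called 3 of 10 members, where 15.5% of all genes were called, 2 higher (8.00% of all genes) and 1 lower (7.48%). CRY2 rose by 0.32 ± 0.09 (adjusted p 0.0241, limma), from 2.58 to 2.82 FPKM with siNON to 3.16 to 3.57 FPKM with siIRF2BP2, without overlap. NR1D2 rose by 0.36 ± 0.11 (adjusted p 0.0383, limma), although 12.99 FPKM in a siIRF2BP2 library lay below 13.13 FPKM in the siNON vehicle replicate 3. DBP fell from 5.31, 5.04 and 4.09 FPKM to 3.87, 3.32 and 3.65 FPKM, by 0.40 ± 0.11 on the log2 scale (adjusted p 0.0277, limma), without overlap. The authors' deposited table calls none of these 3 under vehicle. The calls depend on single libraries: 5 members were called without the siNON vehicle replicate 3, namely CRY1 (0.22), CRY2 (0.30), NR1D2 (0.49), CLOCK (0.79) and DBP (-0.51). The calls over all 15594 genes also rose in that fit, from 2414 to 4815. Without the siNON vehicle replicate 1, CRY2, NR1D2 and DBP all lost their calls and PER1 gained one (0.37, adjusted p 0.048, limma). Of the 3, CRY2 alone was called without the siNON vehicle replicate 2, NR1D2 alone without the siIRF2BP2 vehicle replicate 3, and 0 members without the siIRF2BP2 vehicle replicate 2 or with just the vehicle groups in the fit. Over all genes, 1173 were called without the siNON vehicle replicate 1 and 1349 without its replicate 2. The count was 1680 without the siIRF2BP2 vehicle replicate 3, 1161 without its replicate 2 and 567 with just the vehicle groups. CLOCK was 3.19, 4.72 and 2.76 FPKM with siIRF2BP2 and did not pass with all libraries (0.50 ± 0.22). Its highest values in the vehicle groups were 3.66 FPKM in the siNON vehicle replicate 3 and 4.72 FPKM in the siIRF2BP2 vehicle replicate 2. The 0.79 above leaves out the first of these and keeps the second. PER1, at 9.84, 8.64 and 10.9 FPKM with siIRF2BP2, overlapped with siNON (0.23 ± 0.11) and was at 0.10 without the siNON vehicle replicate 3. The libraries of 4 of 10 members did not overlap, as for 26.7% of all genes, and the median difference was 0.23 against 0.03 over all genes.

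PER1 served as the pattern to which other HEK293-GR genes were compared across the 12 libraries on the log2 scale. CNKSR3 (Pearson r 0.9969), the receptor kinase gene MERTK (0.9956) and TMEM63C (0.9946) were most like it. These r describe 12 libraries that share 4 groups and are no test. Under siNON vehicle and siNON dex, CNKSR3 averaged 9.45 and 43.1 FPKM, MERTK 3.11 and 7.53 FPKM and TMEM63C 5.94 and 17.2 FPKM.

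Other genes of the clock pathway were read from 3 lists: 11 further transcription factors, 12 genes of the kinases and ubiquitin system that set the stability of PER and CRY proteins, and 8 partners and outputs. Of the 31, 29 were tested in HEK293-GR. Dex with siNON called 4 higher and 4 lower of the 29, where 20.7% of all genes were called, with a list median of -0.04. The D-box activator TEF rose by 1.33 ± 0.12 (log2 ± SE), the clock repressor CIART by 1.48 ± 0.21, the deubiquitinase USP2 by 1.04 ± 0.17 and the PER kinase CSNK1D by 0.43 ± 0.08. The E-box repressors BHLHE40 and BHLHE41 fell by 1.04 ± 0.12 and 0.91 ± 0.15. Dex with siIRF2BP2 called 5 higher and 3 lower (median -0.06, 10.5% of all genes called): TEF rose by 0.65, USP2 by 0.78, CSNK1D by 0.32 and PPP1CB by 0.39, and BHLHE40 fell by 1.17 and BHLHE41 by 1.08. For the difference of the dex responses, 0 of the 29 passed, where 0.0128% of all genes did. TEF was at -0.68 ± 0.17 there (adjusted p 0.428, limma). The knockdown under vehicle called 5 higher and 0 lower (median 0.14, 15.5% of all genes called), with the ARNTL paralog ARNTL2 at 0.49, the cell cycle kinase WEE1 at 0.29, the D-box repressor NFIL3 at 0.37, HLF at 0.43 and CIPC at 0.27. The knockdown under dex called 9 higher and 4 lower (median 0.08), where 39.7% of all genes were called. There ARNTL2 rose by 0.67, the deacetylase SIRT1 by 0.46 and WEE1 by 0.27, and TEF fell by 0.51 and BHLHE41 by 0.59. By list, the knockdown under dex called 2 transcription factors higher and 3 lower of 9 tested, 2 higher and 1 lower of 12 in the kinase and ubiquitin list, and 5 higher and 0 lower of 8 partners and outputs.

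**Figure D3:**
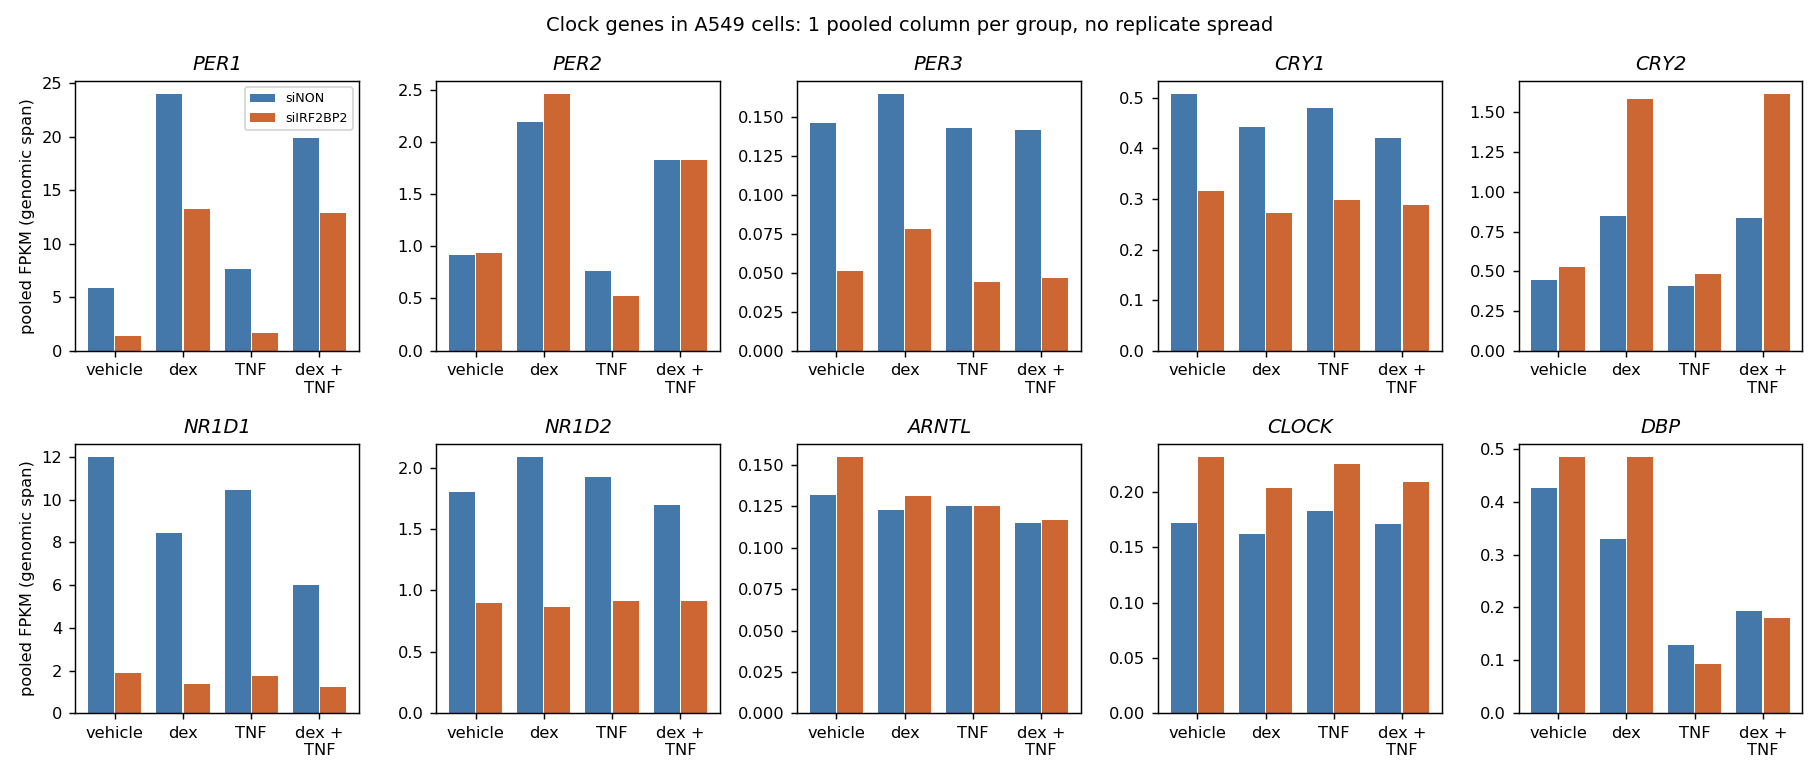
Pooled FPKM (y axis, per kilobase of genomic span, from 0) of each clock gene in A549 under the 4 treatments (x axis), with siNON in blue and siIRF2BP2 in orange. Each bar is 1 pooled column without a replicate spread. NR1D1 lies at 6.00 to 12.02 FPKM with siNON and at 1.26 to 1.89 FPKM with siIRF2BP2.

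In A549, the knockdown lowered PER1, PER3, CRY1, NR1D1 and NR1D2 under each of the 4 treatments, in the authors' deposited table. NR1D1 was 12.02 FPKM with siNON and 1.89 FPKM with siIRF2BP2 under vehicle (5428 and 564 pooled reads), a log2 fold change of -2.75 in that table (FDR 6.72e-133). It was 8.45 and 1.36 FPKM under dex, 10.4 and 1.74 FPKM under TNF and 6.00 and 1.26 FPKM under dex plus TNF, with deposited values of -2.71, -2.68 and -2.35. The highest siIRF2BP2 level of NR1D1 was thus below its lowest siNON level. The 3' end of NR1D1 (chr17:38249037-38256978, hg19, minus strand) overlaps the thyroid hormone receptor gene THRA on the opposite strand by 1083 bases, and no source used here says that reads were counted by strand, so reads of the overlap cannot be told apart. In the authors' deposited table THRA had -0.58, -0.50, -1.12 and -0.79 in the same 4 comparisons, and its part in the NR1D1 values was not tested. NR1D2 was 1.80 and 0.90 FPKM under vehicle, 2.09 and 0.87 FPKM under dex, 1.93 and 0.91 FPKM under TNF and 1.70 and 0.92 FPKM under dex plus TNF. Its deposited log2 fold changes were -1.16, -1.43, -1.20 and -1.01, each called by the authors.

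PER1 in A549 (chr17:8043788-8055753, hg19, minus strand) was 5.85 FPKM with siNON and 1.40 FPKM with siIRF2BP2 under vehicle, and 7.59 and 1.65 FPKM under TNF. The authors' deposited log2 fold changes were -2.12 and -2.29. With dex present the levels were 24.0 and 13.3 FPKM, and with dex plus TNF 19.9 and 12.9 FPKM, with deposited log2 fold changes of -0.88 and -0.69. The fold between siNON and siIRF2BP2 pools was 4.17 under vehicle and 4.61 under TNF, against 1.81 under dex and 1.54 under dex plus TNF, a difference between treatments that was not tested. PER3 was 0.15 and 0.05 FPKM under vehicle (504 and 116 reads), with deposited values of -1.66 with vehicle, -1.21 with dex, -1.78 with TNF and -1.67 with both ligands. CRY1 was 0.51 and 0.32 FPKM under vehicle, with -0.81, -0.89, -0.79 and -0.62 in the same order. PER2, at 0.92 and 0.94 FPKM under vehicle, was called by the authors under TNF alone among the knockdown comparisons (0.76 and 0.53 FPKM, -0.61).

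CRY2 was called higher where dex was present. It was 0.85 and 1.59 FPKM under dex and 0.84 and 1.62 FPKM under dex plus TNF, with deposited log2 fold changes of 0.81 and 0.89. Without dex the authors did not call CRY2, at 0.13 under vehicle and 0.17 under TNF. ARNTL, CLOCK and DBP were not called in any of the 4 knockdown comparisons. Their deposited values lay between -0.10 and 0.11 for ARNTL, between 0.19 and 0.28 for CLOCK and between -0.55 and 0.42 for DBP. The members called were 5 of 10 under vehicle (35.9% of all genes), 6 of 10 under dex (33.2%), 6 of 10 under TNF (40.6%) and 6 of 10 under dex plus TNF (37.5%). Called lower were 5 under vehicle (18.9% of all genes), 5 under dex (17.2%), 6 under TNF (20.0%) and 5 under dex plus TNF (18.9%). The member medians were -0.45, -0.46, -0.70 and -0.39, and the medians over all genes were 0.01, 0.00, 0.02 and 0.01.

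The same 10 genes had other values for the knockdown in HEK293-GR. Under vehicle, limma gave NR1D1 at -0.08 ± 0.15 and PER1 at 0.23 ± 0.11, and called NR1D2 higher. Without the siNON vehicle replicate 3, NR1D1 was at -0.28 and PER1 at 0.10, neither called, and NR1D2 at 0.49. The authors' deposited HEK293-GR values call NR1D2 higher under dex (0.79) but not under vehicle. They call PER1 lower under dex (-0.18), the direction it has in A549. IRF2BP2 itself fell by 0.84 ± 0.08 under vehicle in HEK293-GR and by 0.31 in the A549 table. The tables were normalized apart, by exon length in HEK293-GR and by genomic span in A549. The values with an SE are from limma, and those of A549 are the authors' own. For NR1D2 the transcript that stood for the gene was not the same in both tables. The difference between the lines was not tested.

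**Figure D4:**
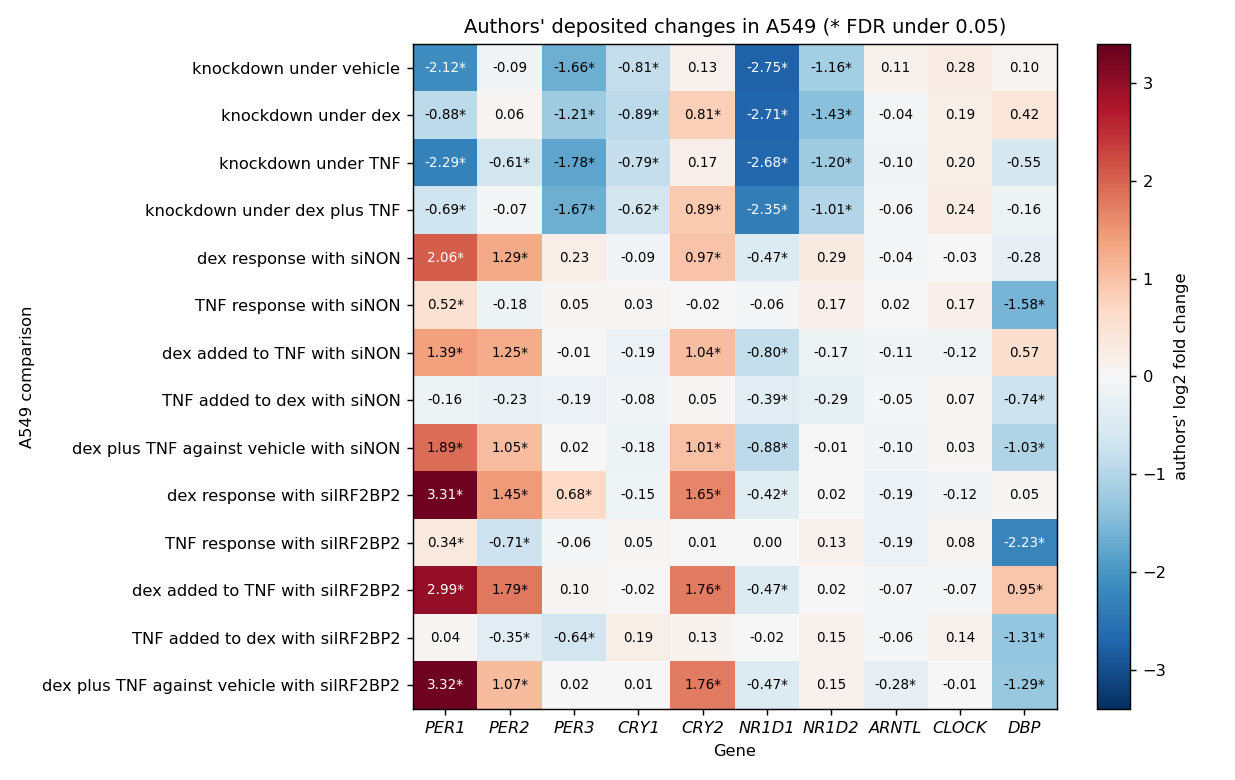
The authors' deposited log2 fold change of each clock gene (columns) in 14 A549 comparisons (rows), printed in the cells and coloured from blue (lower) to red (higher), with an asterisk where the authors' FDR is under 0.05. NR1D1 is lowest in the knockdown rows (-2.75 to -2.35), and PER1 is highest in the rows for dex with siIRF2BP2 (2.99 to 3.32).

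Dex in A549 raised PER1, PER2 and CRY2 with either siRNA. With siNON, PER1 went from 5.85 to 24.0 FPKM, PER2 from 0.92 to 2.19 FPKM and CRY2 from 0.45 to 0.85 FPKM, and the authors' deposited log2 fold changes were 2.06, 1.29 and 0.97. NR1D1 fell from 12.02 to 8.45 FPKM (-0.47 in the deposited table). With siIRF2BP2, PER1 went from 1.40 to 13.3 FPKM, PER2 from 0.94 to 2.46 FPKM and CRY2 from 0.53 to 1.59 FPKM, with deposited values of 3.31, 1.45 and 1.65. The PER1 pool with siIRF2BP2 and dex remained below that with siNON and dex, while its ratio to its own vehicle was 9.47 against 4.102 with siNON. PER3 (0.05 to 0.08 FPKM, deposited 0.68, on 116 and 171 reads) and NR1D1 (-0.42) were also called with siIRF2BP2. The authors called 4 of 10 members with siNON (11.0% of all genes) and 5 of 10 with siIRF2BP2 (25.1%). Whether the responses with each siRNA differ was not tested, since the pooled columns hold no spread. ARNTL, which rose with dex in HEK293-GR, was at 0.13 and 0.12 FPKM under vehicle and dex in A549 (deposited -0.04, not called), and NR1D2, which fell there, was at 0.29 (not called).

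Under TNF alone the member with the largest called change was DBP, with either siRNA, on few reads in A549. DBP was 0.43 FPKM (169 reads) under vehicle and 0.13 FPKM (39 reads) under TNF with siNON, with a deposited log2 fold change of -1.58. With siIRF2BP2 it was 0.49 FPKM (127 reads) and 0.09 FPKM (31 reads), at -2.23. PER1 was called at 0.52 with siNON and 0.34 with siIRF2BP2, and PER2 with siIRF2BP2 at -0.71 (0.94 to 0.53 FPKM), where the siNON value of -0.18 was not called. The authors called 2 of 10 members with siNON (20.4% of all genes) and 3 of 10 with siIRF2BP2 (39.0%).

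When both ligands were given, the A549 values of PER1, PER2 and CRY2 stayed above vehicle. Against vehicle, dex plus TNF with siNON gave deposited log2 fold changes of 1.89 for PER1, 1.05 for PER2, 1.01 for CRY2, -0.88 for NR1D1 and -1.03 for DBP (5 of 10 called, 22.1% of all genes). With siIRF2BP2 these were 3.32, 1.07, 1.76, -0.47 and -1.29, and ARNTL was called at -0.28 (6 of 10, 43.2%). Dex added to TNF changed PER1 by 1.39 with siNON and 2.99 with siIRF2BP2, PER2 by 1.25 and 1.79, and CRY2 by 1.04 and 1.76, in the deposited table. In that comparison NR1D1 was called lower with either siRNA (-0.80 and -0.47), and DBP was called higher with siIRF2BP2 (0.95, from 31 to 45 reads). The counts were 4 of 10 with siNON (17.4% of all genes) and 5 of 10 with siIRF2BP2 (25.5%). TNF added to dex called 2 of 10 with siNON (10.9% of all genes), NR1D1 (-0.39) and DBP (-0.74). With siIRF2BP2 it called 3 of 10 (31.6%), PER2 (-0.35), PER3 (-0.64) and DBP (-1.31). PER1 was not called for TNF added to dex (-0.16 and 0.04). These comparisons share their pools with each other, so they are not independent.

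Of the other clock pathway genes, 30 were measured in A549. The knockdown under vehicle called 5 higher and 9 lower of the 30 in the deposited table, where 35.9% of all genes were called. NPAS2, the CLOCK paralog, was at -0.74, NOCT at -1.07, WEE1 at 0.94 and CIART at -2.03. The PER kinase CSNK1E was at -0.51 and SIRT1 at -0.64. Among the called genes, 0 transcription factors were higher and 3 lower of 10. In the kinase and ubiquitin list 2 were higher and 3 lower of 12, and 3 partners and outputs were higher and 3 lower of 8. Under dex the counts were 6 higher and 7 lower (33.2% of all genes), under TNF 4 and 10 (40.6%), and under dex plus TNF 5 and 7 (37.5%), with NPAS2 at -0.95, -0.76 and -0.63. Dex called 6 higher and 2 lower with siNON (11.0% of all genes), among them CIART (1.98), NFIL3 (0.70), WEE1 (0.72) and CSNK1D (0.65). It called 9 higher and 2 lower with siIRF2BP2 (25.1%), with CSNK1D at 0.69 and CIART at 2.69. TNF called 8 higher and 0 lower with siNON (20.4% of all genes), among them ARNTL2 (1.46), the NAD synthesis enzyme NAMPT (1.32), NFIL3 (1.08) and BHLHE41 (2.09, from 39 to 120 reads), and 12 higher and 3 lower with siIRF2BP2 (39.0%), with ARNTL2 at 1.52. The list medians were -0.08 for the knockdown under vehicle, 0.03 for dex and 0.15 for TNF with siNON.

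**Figure D5:**
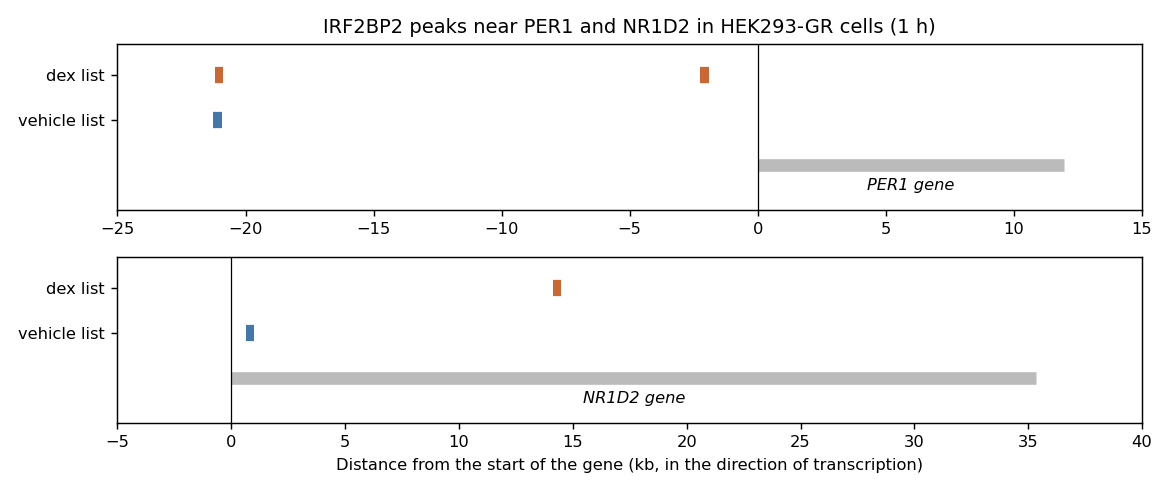
Deposited IRF2BP2 peaks near PER1 (top) and NR1D2 (bottom) in HEK293-GR cells by distance from the start of the gene (x axis, kb in the direction of transcription), with the vehicle list in blue, the dex list in orange and the gene in grey. PER1 has a dex-list peak 2.07 kb upstream, and the peaks of NR1D2 lie at 0.82 kb in the vehicle list and at 14.3 kb in the dex list.

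IRF2BP2 ChIP peaks lay near 2 of the 10 members, PER1 and NR1D2. The lists hold 1108 peaks for vehicle and 1400 for dex, from 4 samples, and how the replicates were combined is not given in the sources used here. At PER1, a peak of the dex list lay on chr17:8057660-8057991 (hg19), with its centre 2.07 kb upstream of the start of the gene and in no gene of the table, and it overlapped no peak of the vehicle list. A second site, present in both lists (chr17:8076682-8077024 under vehicle and chr17:8076626-8076957 under dex), was 21.1 and 21.0 kb upstream, inside TMEM107. At NR1D2 (chr3:23986751-24022109, hg19, plus strand) the vehicle list had a peak on chr3:23987402-23987744, centred 0.82 kb after the first start and holding the start of another transcript at 23987612. The dex list had instead a peak on chr3:24000900-24001231 in the gene body, 14.3 kb from the start. Neither NR1D2 peak overlapped a peak of the other list. Presence in a list is a call past the authors' threshold and gives no amount, so a change between the lists was not tested.

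Within 100 kb, 2 of 10 members had a peak centre, where 13.6% of 25690 genes did, and within 20 kb 2 of 10, where 3.2% did. With only peaks that overlap the other list, 1 of 10 members (PER1) remained within 100 kb, where 4.04% of genes did, and 0 of 10 within 20 kb, where 0.973% did. By list, 1 of 10 members had a vehicle-list peak within 20 kb (1.94% of genes) and 2 of 10 a dex-list peak (2.27%). The remaining 8 members had no peak centre within 100 kb in either list, including NR1D1 and DBP. The peaks are on hg19 and the promoter letters above on GRCh38.p14, so their positions were not set against each other. The RNA of these 2 genes at 6 h, beside peaks at 1 h, was a rise of PER1 by 2.59 ± 0.11 and a fall of NR1D2 by 0.75 ± 0.11 with dex and siNON in the same line.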

How the data were processed

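RNA of 12 HEK293-GR libraries and 8 pooled A549 groups and 2 lists of IRF2BP2 ChIP peaks were used. Groups came from the sample labels. Per the submitters' processing notes, which give no order or role, the tools for RNA were edgeR, TopHat2, Bowtie2, HOMER, Trimmomatic 0.33 and FastQC, those for ChIP were bedtools, HOMER 4.10.3, Bowtie 0.12.9 and FastQC, and the build was hg19. Per the file headers, the deposited FPKM were scaled by the authors by a length column and by the tags of each column. That length is the exon length in HEK293-GR and equals the genomic span for 98.6% of A549 rows. Per the file headers, the log2 fold changes and the p-values with their FDR are the authors' own, and the test behind them is not given in the sources used here. The score deposited in the peak lists was not used.

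FPKM times length times tags came out as whole reads, with a tolerance of 0.01 reads on top of rounding, for 99.9% or more of HEK293-GR genes checked in each library. In the pooled A549 columns the share was 87.1% to 99.6% of the transcripts checked, so A549 tags and read counts are less certain. The design allowed for counts or FPKM. Since the files hold FPKM, limma 3.58.1 (trend) in R 4.3.3 was fitted to log2(FPKM + 0.1) over the 12 libraries, keeping genes that reached 10 reads in 3 or more libraries, with Benjamini-Hochberg adjustment at 0.05, and was tested on simulated data. A549 background shares use the 15947 genes that reached 10 reads in 3 or more pooled columns. Alternatives were a pseudocount of 1, no filter, median-of-ratios scaling, a replicate block, each library left out, only the compared groups in the fit and, chosen after seeing the data, voom on the recovered reads. In A549 they were the longest transcript and the pooled ratio, and for peaks a window of 20 kb or peaks in both lists. No pair of libraries agreed within sampling noise (chi-square per degree of freedom at least 1.28).

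The text names the 10 members, IRF2BP2, at most 6 called genes with the smallest p from each comparison over 3 lists (transcription factors, kinases and ubiquitin system, partners and outputs), and the 3 genes most like PER1, plus THRA and TMEM107, which were added for their positions. The values of 1 listed gene are not reported here. The members and lists were chosen with earlier results of these data known. Promoters and motif shares are from RefSeq, GRCh38.p14.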

Additional observations from a re-analysis of the deposited data

How the results depend on the processing

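In HEK293-GR, 630 of 650 single-gene values under the alternatives kept their direction or were uncalled, and kept their side of the threshold. Another 16 lost their call, 4 gained one, and 0 called values reversed. In A549, 280 of 280 were kept, and the authors' log2 fold changes and the pooled log2 ratios without a pseudocount differed by at most 0.19. The knockdown under vehicle was the comparison that moved: its 3 called members became 0 with only the 2 groups in the fit, and 0 to 5 with 1 library left out. Its count over all genes, 2414, became 567 with only the 2 groups and 1161 to 4815 with 1 library left out. Over all genes the dex response with siNON went from 3235 to 1976 calls without the siNON dex replicate 3, and the difference of the responses from 2 to 22 with a pseudocount of 1 and 0 to 7 with 1 library left out. The count of members with a nearby peak, 2, became 1 with peaks in both lists, and 0 when such peaks had also to lie within 20 kb. Outside the knockdown under vehicle, 1 member call changed: NR1D2 passed for dex with siIRF2BP2 (-0.30) in a fit of those groups alone. Same-numbered libraries of different groups share only a number: the correlations of their deviations were -0.38 to 0.26. For the siNON vehicle replicate 3 and the siIRF2BP2 vehicle replicate 2, of different numbers, the correlation was 0.57. With the replicate block, 2 members were called for the knockdown under vehicle (NR1D2 lost its call, adjusted p 0.0566), 3 under dex, 5 and 4 for the dex responses and 0 for their difference, over all genes 0. The block called 1888 and 5480 of all genes for these knockdowns and 2628 and 1450 for the dex responses. DBP and PER3 in A549, with 31 to 169 and 102 to 570 reads, are the members most limited by depth.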
